A study of Mus musculus with 35 samples.

Results

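The immunoglobulin Fc receptors of mouse liver macrophages were followed as 6 genes, chosen by symbol from the 54735 gene symbols in each count file. They were the activating receptors for IgG Fcgr1, Fcgr3 and Fcgr4, the inhibitory receptor Fcgr2b, the signalling chain Fcer1g and the neonatal Fc receptor Fcgrt. All 6 were found and all 6 passed the filter on low counts. RNA sequencing had been performed on 35 bulk samples of macs sorted from livers of male C57BL/6J mice that were put on a standard diet (SD) or a Western diet (WD), which was high in fat and cholesterol with fructose and sucrose in the drinking water. Resident Kupffer cells (ResKCs, sorted as CLEC4F+TIM4+) came from SD mice at 12 weeks (n = 7), WD mice at 12 weeks (n = 5), SD mice at 24 weeks (n = 6) and WD mice at 24 weeks (n = 6). Monocyte-derived Kupffer cells (moKCs, CLEC4F+TIM4-, n = 5) and CLEC4F- macs (CLEC4F-TIM4-, n = 6) came from WD mice at 24 weeks, with no SD counterpart. No group carried a genetic change. For the 5 WD samples of 12 weeks, the titles and descriptions give the Western diet while the diet field gives the standard diet, and the titles were followed.

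Fc receptors bind the constant part of antibodies. Fcgr1, Fcgr3 and Fcgr4 encode IgG-binding chains that sit in the membrane with the gamma chain encoded by Fcer1g, whose cytoplasmic ITAM motif recruits Src and Syk kinases and starts phagocytosis and the oxidative burst. Fcgr2b carries an ITIM motif that recruits inositol and tyrosine phosphatases and dampens the signal, and in the liver it is best known from sinusoidal endothelial cells (LSECs), which use it to clear immune complexes. Fcgrt encodes the heavy chain of FcRn, which pairs with beta-2-microglobulin (B2m) in endosomes and returns IgG and albumin to the surface.

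Total counts per sample ranged from 11568590 to 15163845, and no pair of libraries was identical. A count of 3 corresponded to 0.198 to 0.259 per 1000000 total counts of its sample, before scaling. The levels given below in CPM are counts per 1000000 after scaling between samples by TMM. The 6 general macrophage markers were detected in every group, with a summed level of 19623 CPM or more in each CLEC4F- mac sample. The 5 Kupffer cell markers summed to 16940 CPM or more in the moKCs and 25003 CPM or more in the 24-week WD ResKCs. In the CLEC4F- macs the same sum was 12169 CPM in replicate 4 and between 1281 and 5541 CPM in the other 5, so replicate 4 stood apart towards the Kupffer cells, and the CLEC4F- mac values are also given without it. Monocyte marker sums were 370 to 1432 CPM in the CLEC4F- macs and 92.3 to 171 CPM in the 24-week WD ResKCs. Other sums were also higher in CLEC4F- macs than in each 24-week WD ResKC sample. They were 21.6 to 176 against 10.3 to 20.9 CPM for 6 dendritic cell markers and 6.08 to 23.2 against 1.31 to 4.26 CPM for 8 T and NK cell markers. The sum of 8 neutrophil markers was 8.39 to 13.3 against 2.63 to 6.86 CPM, with Ly6g at 0 in every group. The part of these cells in the CLEC4F- mac results was not tested. Alignment names in the count files followed 2 schemes, with 22 samples under the first and 13 under the second. The sources used here do not say what the schemes stand for, and all 24-week SD and 12-week WD samples fell under the first.

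Of the 6 genes, 4 lie within the same stretch of chromosome 1 (GRCm38, equal to mm10). Fcgr2b (ENSMUSG00000026656.15, chr1:170958617-170976547, minus strand), Fcgr4 (ENSMUSG00000059089.4, chr1:171018920-171029761, plus strand), Fcgr3 (ENSMUSG00000059498.13, chr1:171051174-171064935, minus strand) and Fcer1g (ENSMUSG00000058715.11, chr1:171229572-171234365, minus strand) follow each other there. Fcgr1 (ENSMUSG00000015947.10, chr3:96282909-96293969, minus strand) and Fcgrt (ENSMUSG00000003420.8, chr7:45092990-45103851, minus strand) lie elsewhere. GENCODE places an antisense gene, Gm38204, opposite Fcgr2b with 155 shared exon bases, and the strand setting of the counting is not given in the sources used here.

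Fcgr2b and Fcgr3 have similar coding sequences, which matters because their reads had to be told apart. Their longest coding sequences, of 1023 and 804 bases, were identical at 86.5% of 785 aligned bases, whereas the other pairs among Fcgr1, Fcgr2b, Fcgr3 and Fcgr4 were identical at 64.0% to 67.2%. The longest run without a mismatch was 129 bases and covered bases 278 to 406 of the Fcgr2b coding sequence and 263 to 391 of that of Fcgr3. It is shown because a read of 75 bases inside it fits both genes.
Shared run of Fcgr2b and Fcgr3: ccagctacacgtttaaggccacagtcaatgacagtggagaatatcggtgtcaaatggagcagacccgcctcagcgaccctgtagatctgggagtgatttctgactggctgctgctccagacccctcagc
Of all different windows of 75 bases in the Fcgr3 transcripts, 94 of 1733 (5.4%) also occurred in Fcgr2b transcripts. Fcgr2b shared 313 of its 5768 windows (5.4%) with transcripts of Fcgr3 or other genes. Fcgr1, Fcgr4, Fcer1g and Fcgrt shared none. How multiply matching reads were counted is not given in the sources used here, so the Fcgr2b and Fcgr3 values carry that uncertainty.

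The 250 bases before the RefSeq start site (GRCm38.p6) were found for all 6 genes and searched on both strands for GAGGAA, which holds the core bound by the myeloid factor PU.1. GAGGAA or its reverse complement was present in Fcgr1, Fcgr3 and Fcgr4 and not in Fcgr2b, Fcer1g or Fcgrt, while 23.3% of 32851 promoters of the same length held it. GGAA, the core within it, does occur in the Fcgr2b, Fcer1g and Fcgrt sequences, so the difference is one of the longer string. The 3 activating receptors are shown beside Fcgr2b because their levels varied together between samples, and capitals mark the matches. The level of Fcgr4 also varied with that of Fcgrt, which held no match.
Fcgr1 (chr3:96293970-96294219, minus strand): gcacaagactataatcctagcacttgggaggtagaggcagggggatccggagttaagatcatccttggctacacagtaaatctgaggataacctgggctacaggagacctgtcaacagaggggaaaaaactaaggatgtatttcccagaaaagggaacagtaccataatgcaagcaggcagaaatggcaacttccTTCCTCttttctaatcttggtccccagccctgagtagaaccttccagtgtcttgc
Fcgr3 (chr1:171059404-171059653, minus strand): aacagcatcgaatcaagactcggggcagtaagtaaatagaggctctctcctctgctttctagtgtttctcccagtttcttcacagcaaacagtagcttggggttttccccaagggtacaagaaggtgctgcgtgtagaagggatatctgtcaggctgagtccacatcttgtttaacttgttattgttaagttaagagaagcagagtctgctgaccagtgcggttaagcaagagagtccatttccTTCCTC
Fcgr4 (chr1:171018676-171018925, plus strand): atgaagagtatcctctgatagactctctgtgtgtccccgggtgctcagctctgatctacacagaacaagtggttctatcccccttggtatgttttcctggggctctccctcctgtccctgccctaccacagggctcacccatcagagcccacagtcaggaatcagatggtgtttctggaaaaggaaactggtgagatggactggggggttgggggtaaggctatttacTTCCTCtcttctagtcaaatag
Fcgr2b (chr1:170976072-170976321, minus strand): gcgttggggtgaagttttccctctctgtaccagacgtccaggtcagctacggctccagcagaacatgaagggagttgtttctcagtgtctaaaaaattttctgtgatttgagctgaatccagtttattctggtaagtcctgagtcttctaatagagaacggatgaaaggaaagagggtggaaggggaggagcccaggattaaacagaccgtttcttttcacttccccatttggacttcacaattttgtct
The first base of the GAGGAA match lay 55 bases before the start of Fcgr1, 22 before that of Fcgr4, and 6 and 15 before the 2 RefSeq start sites of Fcgr3, of which the first is shown. A match is a string of letters and was not tested as a binding site.

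Per kilobase of annotated exon, the order of the levels was the same in the SD ResKCs of 12 and 24 weeks. At 24 weeks Fcer1g was highest at 1389 ± 76.05 CPM per kb (SD, n = 6), followed by Fcgr3 at 490 ± 46.7, Fcgrt at 441 ± 54.15, Fcgr4 at 413 ± 44.6, Fcgr1 at 126 ± 7.17 and Fcgr2b at 18.3 ± 6.83. In the CLEC4F- macs Fcgrt stood at 124 ± 26.8 CPM per kb (n = 6), below Fcgr4 at 247 ± 55.4 and near Fcgr1 at 110 ± 23.0. The annotated exons of Fcgr2b span 5790 bases over all its transcripts. Set against its shortest protein-coding transcript of 1084 bases, Fcgr2b would reach 97.9 CPM per kb in the 24-week SD ResKCs and 243 CPM per kb in the CLEC4F- macs. All further levels are CPM and are compared between samples. Ratios of counts between genes, given further on, are not corrected for length and are compared only between groups.

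**Figure D1:**
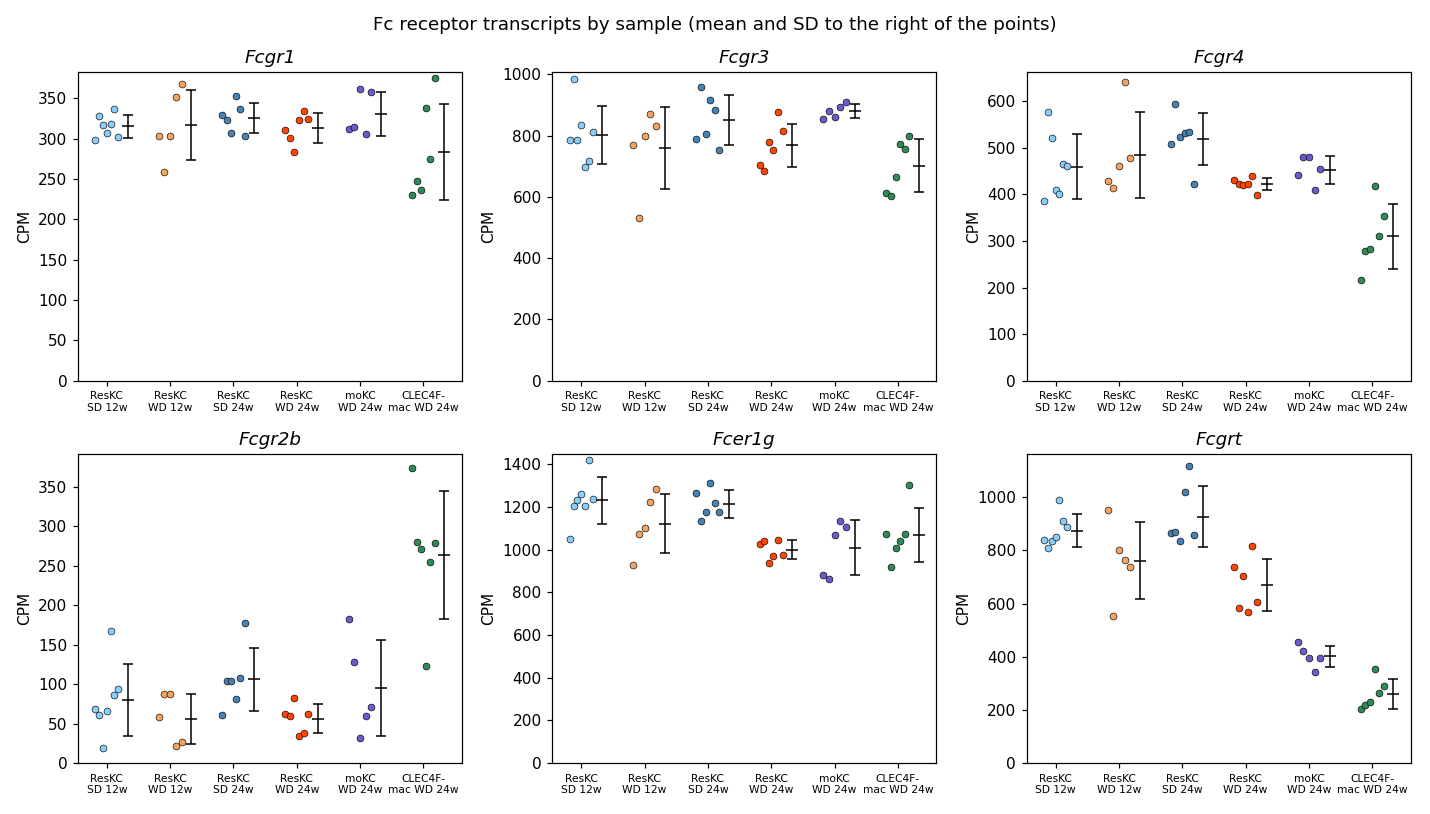
Level of each Fc receptor gene in CPM (linear axis from 0) in each of the 35 samples, by group, with the group mean and SD to the right of the points. Fcgrt lies at 568 to 1116 CPM in the 24-week ResKCs and at 202 to 354 CPM in the CLEC4F- macs, Fcgr2b has its highest mean in the CLEC4F- macs, and Fcgr1 overlaps in all groups.

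The comparison of CLEC4F- macs with ResKCs from the same diet and time asked how recruited macs that lack Kupffer cell identity differ from resident ones. In that comparison 3 of the 6 genes were called (edgeR, adjusted p under 0.05), beside 33.0% of all 13421 genes tested. Fcgr2b was higher, Fcgrt and Fcgr4 were lower, and Fcgr1, Fcgr3 and Fcer1g were not called.

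Fcgrt, the FcRn heavy chain, was lower in both moKCs and CLEC4F- macs. In the 24-week WD ResKCs it ranged from 568 to 816 CPM with a median of 656. The 5 moKC samples had 454, 420, 395, 344 and 394 CPM. The CLEC4F- macs ranged from 202 to 354 CPM with a median of 247. Each moKC and each CLEC4F- mac sample lay below each ResKC sample, and 5 of the 6 CLEC4F- macs lay below all moKCs, the exception being replicate 4. The log2 fold change against WD ResKCs was -1.37 (SE 0.12, adjusted p = 1.97e-10) in CLEC4F- macs and -0.74 (SE 0.13, adjusted p = 4.08e-04) in moKCs, and it was -0.63 (SE 0.12, adjusted p = 3.83e-04) between CLEC4F- macs and moKCs. Without replicate 4 of the CLEC4F- macs the value against ResKCs was -1.48 and that against moKCs -0.74 (adjusted p = 1.89e-05). Within the first naming scheme the CLEC4F- macs had -1.63 against ResKCs and within the second -1.13, both called. The moKCs had -0.62 (adjusted p = 0.114) within the first scheme and -0.81 (adjusted p = 0.0204) within the second. Between CLEC4F- macs and moKCs the value was -1.01 within the first scheme (called) and -0.32 within the second (adjusted p = 0.306).

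Fcgr2b, the inhibitory receptor, ran the other way. It ranged from 34.2 to 82.9 CPM in the WD ResKCs of 24 weeks, with a median of 60.5. The moKCs had 183, 129, 31.7, 59.7 and 70.9 CPM. In the CLEC4F- macs it ranged from 123 to 374 CPM with a median of 275. All 6 CLEC4F- mac samples were above every WD ResKC sample and 5 of 6 were above every moKC sample, replicate 4 at 123 CPM being the exception. The log2 fold change was 2.23 (SE 0.41, 95% interval 1.39 to 3.06, adjusted p = 5.62e-05) against ResKCs and 1.48 (SE 0.42, adjusted p = 0.0134) against moKCs. Without replicate 4 these were 2.37 and 1.62. The rise over ResKCs was 2.19 within the first naming scheme and 2.29 within the second, both called, while that over moKCs was 0.99 within the first (adjusted p = 0.266) and 2.02 within the second (adjusted p = 0.026). The 2 moKC samples of the first scheme held the highest moKC values.

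Fcgr2b varied widely among the Kupffer cell samples, with a coefficient of variation of 31.8% to 63.9% in the 5 ResKC and moKC groups, and this variation ran with LSEC markers. Over the 29 ResKC and moKC samples its log2 level correlated with that of the summed CPM of 10 LSEC markers at Pearson r = 0.949 and Spearman rho = 0.948. Without the 2 samples farthest from the median marker sum r was 0.942, for deviations from the group means it was 0.950, and within the first and second naming schemes it was 0.962 and 0.959. The relation was noticed in these samples, which share library and depth between both measures, and is given as a description with no p. In these samples the Fcgr2b level was 4.23% to 10.8% of the LSEC marker sum. In the 6 CLEC4F- macs it was 22.8% to 71.9%, above every Kupffer cell sample, and r was 0.072. The LSEC marker sum itself was 452 to 834 CPM in CLEC4F- macs and 443 to 1042 CPM in the 24-week WD ResKCs. With the mean level of the LSEC markers as a covariate the Fcgr2b difference between CLEC4F- macs and WD ResKCs was 2.15 (adjusted p = 8.81e-11). Fcgr2b is also a B cell gene, and the B and plasma cell marker sum was 230 CPM in CLEC4F- mac replicate 1, which had the highest Fcgr2b, and 82.9 to 120 CPM in the other 5, against 69.2 to 120 CPM in the WD ResKCs. The dendritic cell marker sum was likewise highest in replicate 1, at 176 CPM, and lowest in replicate 4, at 21.6 CPM, which had the lowest Fcgr2b. So was the monocyte marker sum, at 1432 CPM in replicate 1 and 370 CPM in replicate 4. The Kupffer cell marker sum was lowest in replicate 1, at 1281 CPM, and highest in replicate 4, at 12169 CPM. The part of B cells, dendritic cells, monocytes and Kupffer cells in the result was not tested.

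**Figure D2:**
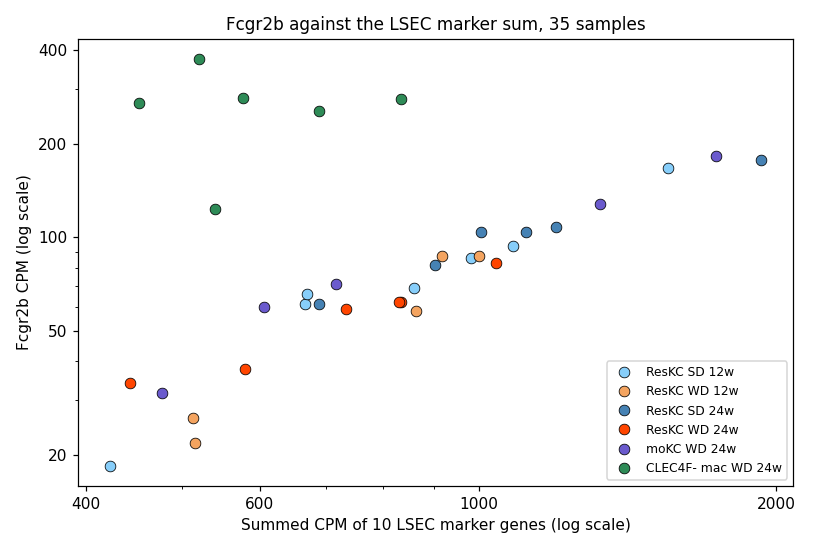
Fcgr2b level in CPM against the summed CPM of 10 LSEC marker genes in each of the 35 samples, both axes on a log scale, coloured by group. The 29 ResKC and moKC samples form 1 rising band (r = 0.949) and the 6 CLEC4F- macs lie above it at marker sums of 452 to 834 CPM.

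Fcgr4, an activating receptor of intermediate affinity for IgG, was lower in CLEC4F- macs. It ranged from 400 to 439 CPM in the 24-week WD ResKCs with a median of 422. The moKCs had 441, 480, 480, 409 and 456 CPM. In the CLEC4F- macs it ranged from 217 to 419 CPM with a median of 297, and 5 of 6 samples lay below all WD ResKCs, replicate 4 being the highest. The log2 fold change was -0.45 (SE 0.12, adjusted p = 0.0030) against ResKCs and -0.55 (SE 0.12, adjusted p = 0.00145) against moKCs. Without replicate 4 these were -0.55 and -0.65. Within the first naming scheme the values were -0.70 and -0.82 (both called), and within the second they were -0.22 (adjusted p = 0.232) and -0.31 (adjusted p = 0.1865).

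Fcgr3, the low-affinity activating receptor, ranged from 604 to 799 CPM in CLEC4F- macs with a median of 711, below each of the 5 moKC values of 853, 881, 861, 893 and 911 CPM. The log2 fold change was -0.33 (SE 0.10, adjusted p = 0.0211), and within the naming schemes it was -0.46 (adjusted p = 0.0519) and -0.19 (adjusted p = 0.328). The call was lost without CLEC4F- mac replicate 1 (adjusted p = 0.0744) or replicate 2 (adjusted p = 0.0686). Against the WD ResKCs, which ranged from 684 to 876 CPM, the CLEC4F- macs overlapped and the value was -0.13 (adjusted p = 0.325). Without replicate 4 it was -0.36 against moKCs (adjusted p = 0.0137) and -0.16 against ResKCs (adjusted p = 0.234).

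Fcgr1, the high-affinity receptor, was not called in any comparison. Its protein, CD64, was part of the gate that defined the macrophages in all groups, and the cells had been incubated with an antibody that blocks Fc receptors before sorting. Group means lay between 284 ± 59.6 CPM in CLEC4F- macs (SD, n = 6) and 330 ± 27.2 CPM in moKCs (n = 5). The CLEC4F- macs ranged from 230 to 375 CPM with a median of 261, and 4 of 6 lay below all WD ResKCs while 2 lay above them. Within the first naming scheme Fcgr1 was lower in CLEC4F- macs by -0.31 against ResKCs (adjusted p = 0.025) and by -0.39 against moKCs (adjusted p = 0.0248), whereas within the second the values were 0.0083 and -0.05. Without CLEC4F- mac replicate 6 it was called against both ResKCs (-0.24, adjusted p = 0.0300) and moKCs (-0.32, adjusted p = 0.0117), and without replicate 4 against moKCs (-0.275, adjusted p = 0.0430) but not against ResKCs (-0.20, adjusted p = 0.106). In the CLEC4F- macs the 3 samples of the first scheme lay below the 3 of the second for Fcgr1, Fcgr3, Fcgr4 and Fcgrt. For Fcgr2b and Fcer1g the schemes overlapped. Replicate 4 is in the second scheme, and the share of all genes that separate in this way was not counted, so this is a description only. Marker sums also separated by scheme in the CLEC4F- macs. Monocyte sums were 1058 to 1432 CPM in the first and 370 to 767 CPM in the second, and dendritic cell sums 69.8 to 176 and 21.6 to 40.7 CPM. Stellate cell sums ran the other way, at 68.6 to 97.2 and 105 to 248 CPM. Kupffer cell sums overlapped, at 1281 to 3607 and 3510 to 12169 CPM. The part of scheme and of cell content in these values was not tested.

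Fcer1g, the shared signalling chain, ranged from 919 to 1303 CPM in CLEC4F- macs and from 937 to 1046 CPM in the WD ResKCs. The moKCs had 880, 862, 1068, 1135 and 1108 CPM. These groups overlapped, and the log2 fold change of CLEC4F- macs was 0.10 against ResKCs (95% interval -0.07 to 0.26, adjusted p = 0.409) and 0.08 against moKCs (adjusted p = 0.615). Without replicate 4 these were 0.10 (adjusted p = 0.392) and 0.09 (adjusted p = 0.586). Counts scaled by library size alone gave 0.22 against ResKCs, which was called (adjusted p = 0.0194). That scaling moved the median of all genes in this comparison to 0.14, from 0.02.

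In moKCs against ResKCs only Fcgrt was called, 1 of 6 genes beside 2.99% of all genes. Fcgr2b, Fcgr3 and Fcgr4 had 0.75 (95% interval -0.09 to 1.59, adjusted p = 0.385), 0.20 (adjusted p = 0.340) and 0.10 (adjusted p = 0.767). The Fcgr2b value was 0.06 with the LSEC marker covariate. In CLEC4F- macs against moKCs 4 of 6 were called, beside 16.4% of all genes, with Fcgr2b higher and Fcgrt, Fcgr4 and Fcgr3 lower. The comparisons with ResKCs share the ResKC samples, and those of CLEC4F- macs share the CLEC4F- samples.

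**Figure D3:**
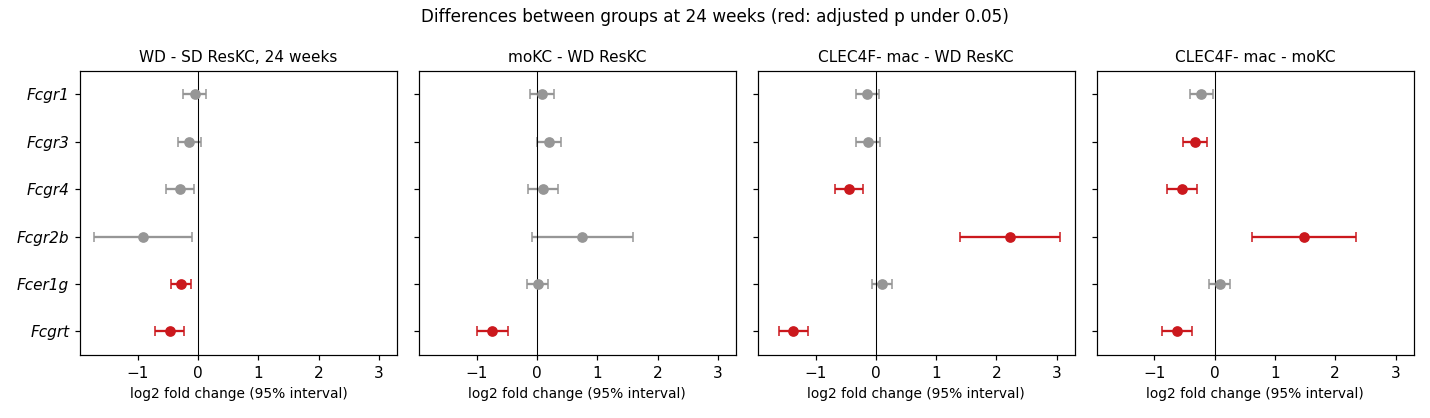
log2 fold change of each gene with its 95% interval in 4 comparisons at 24 weeks, red where the adjusted p was under 0.05. Fcgrt is below 0 and called in all 4, and Fcgr2b is above 0 and called in both comparisons of CLEC4F- macs.

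The balance of activating to inhibitory transcripts is given as the log2 ratio of counts to Fcgr2b, as a description with no test, since it restates the values above. The ratio of Fcgr4 to Fcgr2b was 2.97 ± 0.50 (SD, n = 6) in WD ResKCs of 24 weeks, 2.51 ± 1.00 (n = 5) in moKCs and 0.28 ± 0.83 (n = 6) in CLEC4F- macs. In WD ResKCs it lay between 2.35 and 3.63, and in CLEC4F- macs between -0.79 and 1.77, so these groups did not overlap. The CLEC4F- macs did overlap the moKCs, at 1.27 to 3.92, and the SD ResKCs, whose lowest values were 1.26 at 12 weeks and 1.25 at 24 weeks. That of Fcgr3 was 3.83 ± 0.54 in ResKCs and 1.48 ± 0.66 in CLEC4F- macs, that of Fcgr1 2.54 ± 0.56 and 0.15 ± 0.74, and that of Fcer1g 4.22 ± 0.51 and 2.08 ± 0.55. In the ResKCs and moKCs the denominator ran with LSEC markers, as given above. Without CLEC4F- mac replicate 4 the ratios in CLEC4F- macs were -0.02 for Fcgr4, 1.24 for Fcgr3, -0.11 for Fcgr1 and 1.89 for Fcer1g.

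**Figure D4:**
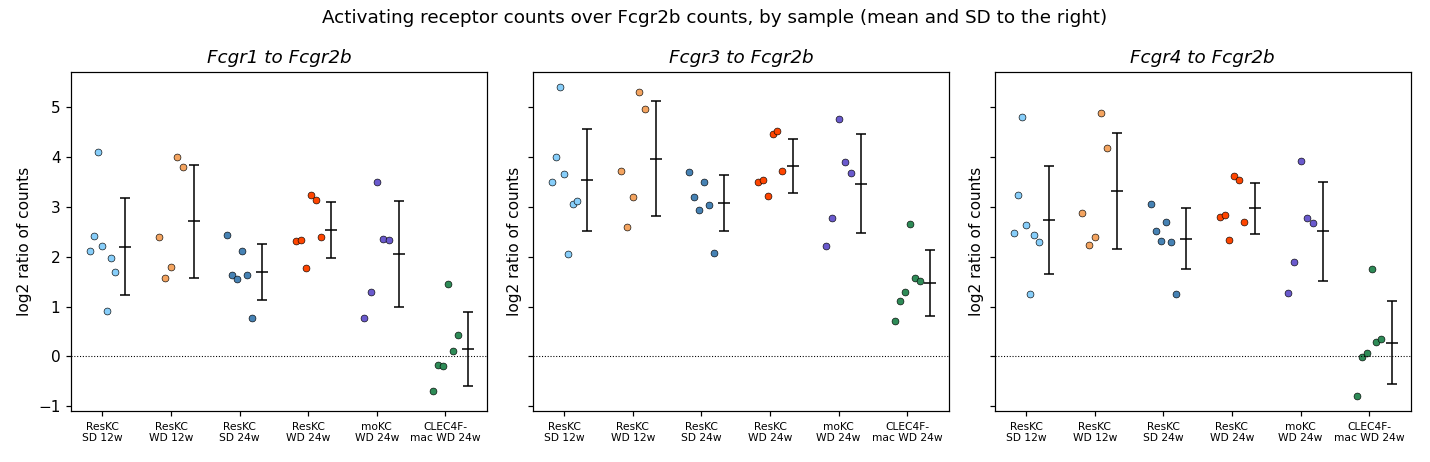
log2 ratio of Fcgr1, Fcgr3 and Fcgr4 counts to Fcgr2b counts in each sample, by group, with the mean and SD to the right of the points and a dotted line at equal counts, which are not equal transcript levels. The CLEC4F- macs have the lowest mean, with a value of 0.28 for Fcgr4 against 2.97 in the 24-week WD ResKCs.

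The diet comparison at 24 weeks asked how resident cells differ between the WD and the SD. Of the 6 genes 2 were called, both lower in WD ResKCs, beside 8.71% of all genes. Fcgrt ranged from 837 to 1116 CPM with a median of 866 in SD ResKCs and from 568 to 816 CPM with a median of 656 in WD ResKCs, with no overlap. The log2 fold change was -0.47 (SE 0.12, adjusted p = 0.0122). Fcer1g ranged from 1134 to 1314 CPM with a median of 1198 in SD ResKCs and from 937 to 1046 CPM with a median of 1002 in WD ResKCs, again with no overlap. Its log2 fold change was -0.28 (SE 0.08, adjusted p = 0.0292), a fold of 0.824. Among samples of the first naming scheme, which holds all 6 SD and 3 of the 6 WD samples, the values were -0.46 for Fcgrt (adjusted p = 0.0526) and -0.28 for Fcer1g (adjusted p = 0.0837), of about the same size. The second scheme had no SD sample at 24 weeks. The sum of the 6 macrophage markers was also lower on the WD, at 21505 to 28836 CPM (median 23830) against 29863 to 34368 CPM (median 30508) on the SD, with no overlap. Its part in the Fcgrt and Fcer1g differences was not tested.

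The sum of 10 immediate-early and heat-shock genes, which respond to cell isolation, was 2587 to 13824 CPM in the SD and 1050 to 4945 CPM in the WD ResKCs of 24 weeks. With this list as a covariate Fcgrt was at -0.51 (adjusted p = 0.0363) and Fcer1g at -0.30 (adjusted p = 0.0777). With hepatocyte markers, whose sum was 505 to 1504 CPM in SD and 1128 to 3237 CPM in WD ResKCs, Fcer1g was at -0.26 (adjusted p = 0.0515). The Fcer1g call was also lost without SD replicate 1 or 4 or WD replicate 3, 4 or 6 (adjusted p of 0.0527 to 0.0678).

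Fcgr2b and Fcgr4 had lower means on the WD at 24 weeks but were not called. Fcgr2b ranged from 60.9 to 178 CPM in SD and from 34.2 to 82.9 CPM in WD ResKCs, at a log2 fold change of -0.91 (95% interval -1.72 to -0.10, adjusted p = 0.145). The LSEC marker sum ranged from 689 to 1930 CPM in the SD and from 443 to 1042 CPM in the WD samples, and with these markers as a covariate the Fcgr2b value was -0.12 (adjusted p = 0.761). As a share of the LSEC marker sum Fcgr2b was 9.30% ± 0.55 (SD, n = 6) in SD and 7.53% ± 0.54 (n = 6) in WD ResKCs. Fcgr4 ranged from 422 to 595 CPM in SD and from 400 to 439 CPM in WD ResKCs, at -0.30 (95% interval -0.53 to -0.06, adjusted p = 0.103). Both were called when the 2 diet groups were fitted alone (adjusted p = 0.0349 and 0.0216). Fcgr1 and Fcgr3 had -0.06 (adjusted p = 0.754) and -0.15 (adjusted p = 0.355).

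At 12 weeks none of the 6 genes was called between diets, beside 0.0373% of all genes. None had an unadjusted p under 0.05, and DESeq2 and limma-voom also called none. Fcgrt was 807 to 989 CPM in the 7 SD samples, with a median of 850, and 953, 551, 802, 765 and 738 CPM in the 5 WD samples. Of these WD values 4 lay below all SD values and 1 within their range, at a log2 fold change of -0.20 (95% interval -0.44 to 0.05, adjusted p = 0.676). The other 5 genes had values from -0.52 (Fcgr2b) to 0.08 (Fcgr4), and the interval of Fcgr2b ran from -1.34 to 0.31. All 5 WD samples of 12 weeks belonged to the first naming scheme, while 3 of the 7 SD samples did. Among the samples of that scheme alone Fcgr2b stood at 0.18 and Fcgr4 at -0.03, both opposite in sign to the values over all samples.

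The difference between the diet effects of 24 and 12 weeks was not called for any of the 6 genes, beside 0.283% of all genes. It was -0.37 for Fcgr4 (unadjusted p = 0.0305, adjusted p = 0.300) and -0.27 for Fcgrt (95% interval -0.61 to 0.07, adjusted p = 0.491). Fcgr4 was the 1 gene with an unadjusted p under 0.05, and DESeq2 and limma-voom called none. Between 12 and 24 weeks none of the 6 was called on the SD, where 0% of all genes were called by edgeR, 1208 genes had an unadjusted p under 0.05, DESeq2 called 22 and limma-voom 0. None was called on the WD either, beside 3.26% of all genes. In both time comparisons no member had an unadjusted p under 0.05, and DESeq2 and limma-voom called none. Fcer1g on the WD came nearest, at -0.17 (95% interval -0.34 to 0.01, adjusted p = 0.296).

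Ordered by mean CPM over the 6 groups, few steps between neighbours were called. The order was set by the same values, so neighbours are the closest groups and a missing call does not show equal levels. For Fcgrt the order ran from SD ResKCs of 24 weeks (927 ± 114 CPM) through SD ResKCs of 12 weeks (874 ± 61.3), WD ResKCs of 12 weeks (762 ± 144) and WD ResKCs of 24 weeks (670 ± 98.8) without a called step. The next steps, to moKCs (401 ± 40.3) and to CLEC4F- macs (260 ± 56.3), were both called. For Fcgr2b the step from CLEC4F- macs (264 ± 80.7 CPM) to the next group, SD ResKCs of 24 weeks (106 ± 39.5), was called (adjusted p = 0.0082) and the lower 4 steps were not. For Fcgr4 the last step, from WD ResKCs of 24 weeks (423 ± 13.2) to CLEC4F- macs (310 ± 69.6), was called and the others were not. No step between neighbouring groups of Fcgr1, Fcgr3 or Fcer1g was called. Groups farther apart in the order were called by edgeR, as given above. These were Fcer1g and Fcgrt between diets at 24 weeks (adjusted p = 0.0292 and 0.0122) and Fcgr3 between CLEC4F- macs and moKCs (adjusted p = 0.0211).

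Across the 35 samples Fcgr1, Fcgr3 and Fcgr4, the activating receptors, varied together at r = 0.67 to 0.72 on log2 CPM (0.64 to 0.68 on deviations from the group means). This was not particular to them, as Fcgr4 with Fcgrt had r = 0.74 (0.44 on deviations from the group means). Fcgr1 and Fcgr3 had 0.45 and 0.36 with Fcgrt. Fcgr2b ran against all 5 other genes, at r = -0.19 (Fcer1g) to -0.66 (Fcgr4). On deviations from the group means its value with Fcgrt went from -0.53 to -0.03, and those with the other 4 genes were -0.38 (Fcer1g) to -0.53 (Fcgr4). These correlations share library and depth, and are given as descriptions with no p. The genes most like each member over all 35 samples were Mcfd2, Rab32 and Eif4ebp1 for Fcgr1 (r = 0.77 to 0.80) and Cebpg, Fam174a and Pdgfc for Fcgr3 (0.68 to 0.71). Those for Fcgr4 were AW112010, Gbp8 and Cpq (0.89 to 0.92), and those for Fcgr2b were Cav2, Cnr2 and Plxnc1 (0.92 to 0.93, and 0.87 to 0.92 on deviations from group means). Fcer1g was most like Clec4a3, B2m and Sri (0.79 to 0.80), and Fcgrt was most like Aldh2, Ninj1 and Slc9a9 (0.96 to 0.97, falling to 0.56 to 0.76 on deviations from group means).

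Genes that act with the Fc receptors were examined as 7 lists, whose counts stand beside 33.0% of all genes called in CLEC4F- macs against WD ResKCs and 8.71% with diet at 24 weeks. A share of a list near these values is not a result about the list. Of 14 other Fc receptors and Fc receptor-like genes 9 passed the filter, and 6 rose and 0 fell in CLEC4F- macs against WD ResKCs, with a median log2 fold change of 1.90 beside 0.02 over all genes. Fcrls and Fcrlb passed the filter through the CLEC4F- macs, the group where they are high, so they could only rise. Fcrlb was 1.97 to 4.85 CPM there and at most 1.24 CPM in moKCs. The count and the median are therefore partly set by the filter. Fcrls, an Fc receptor-like scavenger protein of myeloid cells, was 8.55 to 22.3 CPM in CLEC4F- macs, 0 to 1.35 CPM in moKCs and at most 0.230 CPM in WD ResKCs (adjusted p = 7.40e-08). Fcrl5, a B cell receptor-like gene, reached 3.90 CPM in CLEC4F- macs and was at 0 in at least 1 of them, with at most 0.0789 CPM in WD ResKCs (adjusted p = 3.20e-04). No WD ResKC sample brought Fcrl5 over the 1 CPM of the filter, so its rise may be partly set by the filter too. In the diet comparison at 24 weeks 0 rose and 1 fell, Fcrl1, at -0.43 (adjusted p = 0.0410).

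The 19 ITAM-pathway kinases and adaptors lie downstream of Fcer1g, except Tyrobp, which is itself an ITAM chain. Of these 19 genes, 6 rose and 6 fell in CLEC4F- macs against WD ResKCs, with a median of 0.0028. That is a larger share than the 33.0% of all genes, with as many rises as falls. Lat2, a membrane adaptor, had the largest rise, from 0.614 to 3.24 CPM in WD ResKCs to 16.1 to 67.7 CPM in CLEC4F- macs (log2 fold change 4.87, SE 0.45, adjusted p = 4.09e-10). Tec, a kinase that acts on phospholipase C, rose by 1.95 (SE 0.32, adjusted p = 9.06e-06). The largest fall was that of Lcp2, the adaptor SLP-76, at -0.58 (SE 0.08, adjusted p = 3.03e-07). With diet at 24 weeks 4 rose and 2 fell. Lat2 rose from 0.0702 to 0.408 CPM in SD to 0.614 to 3.24 CPM in WD ResKCs (adjusted p = 0.0027), and Vav3, an exchange factor for Rac, rose by 0.54 (adjusted p = 0.0209). Tyrobp, a sister ITAM chain of Fcer1g, fell by 0.31 (adjusted p = 0.0251).

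Of the 10 ITIM phosphatases and brakes, which act with Fcgr2b, 0 rose and 1 fell in CLEC4F- macs against WD ResKCs, where 33.0% of all genes were called. This was Dok2, at -0.32 (adjusted p = 0.0053). With diet at 24 weeks, where 8.71% of all genes were called, 0 rose and 1 fell, Dok3, at -0.51 (adjusted p = 0.0088). The median was -0.14 in the first and -0.08 in the second comparison.

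Of 12 genes of the phagocyte oxidase and actin machinery 3 rose and 4 fell in CLEC4F- macs against WD ResKCs, with a median of -0.03. Myo1f, a myosin of myeloid cells, rose by 0.75 (adjusted p = 1.14e-06) and Ncf4, an oxidase subunit, by 0.38 (adjusted p = 0.0027), while Rac2, the GTPase of the oxidase, was at -0.79 (adjusted p = 3.84e-06) and the subunit Ncf1 at -0.50 (adjusted p = 2.09e-05). With diet at 24 weeks 0 rose and 2 fell, Ncf4 by -0.41 (adjusted p = 0.0083) and Ncf1 by -0.27 (adjusted p = 0.0431).

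B2m, the partner of Fcgrt in FcRn, was one of 7 genes of FcRn assembly and recycling. It fell with diet in the 24-week ResKCs by 0.44 (adjusted p = 4.39e-04), next to the fall of Fcgrt. In CLEC4F- macs B2m was at 0.14 against WD ResKCs (adjusted p = 0.176), while Fcgrt was at -1.37 in the same samples. Of the 7 genes 1 rose and 3 fell there, with Vps35 of the retromer at 0.26 (adjusted p = 0.0078), the recycling protein Ehd1 at -0.89 (adjusted p = 4.75e-04) and the recycling GTPase Rab11a at -0.23 (adjusted p = 0.0307). B2m was the 1 gene of this list called with diet.

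Of 5 other receptors that signal through Fcer1g, 3 passed the filter and all 3 were called in CLEC4F- macs against WD ResKCs. Clec4e (Mincle) rose by 3.79 (SE 0.65, adjusted p = 1.94e-05) and Clec4d by 1.76 (SE 0.33, adjusted p = 8.97e-05), while Clec4n (Dectin-2) fell by 0.56 (adjusted p = 0.0072). None was called with diet. Of 11 immunoglobulin genes, the ligands, 6 passed the filter and 2 rose in CLEC4F- macs, Ighm by 2.64 (adjusted p = 0.0109) and Igkc by 2.26 (adjusted p = 0.0216), with 0 falling. Ighm ranged from 25.3 to 378 CPM in CLEC4F- macs and from 7.01 to 37.9 CPM in WD ResKCs, and the B and plasma cell marker sums given above stand beside these values and those of Fcrl5. Their part in those values was not tested. In bulk samples fewer cells of a type and less RNA per cell cannot be told apart. Without CLEC4F- mac replicate 4, where 34.4% of all genes were called against WD ResKCs, 7 of the 9 other Fc receptors rose and 6 of the 19 ITAM genes rose while 5 fell. Of the 6 immunoglobulin genes 3 then rose, and the counts of the other 4 lists were as given above. The limit that the filter sets on the count of other Fc receptors holds here too.

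**Figure D5:**
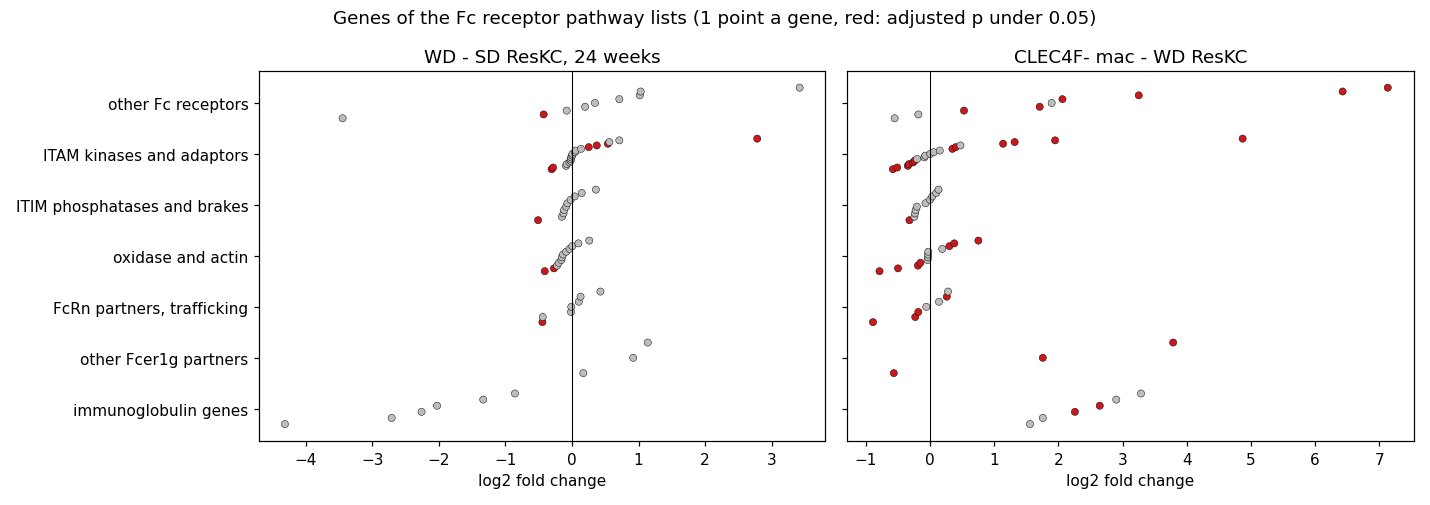
log2 fold change of each tested gene of the 7 lists (1 point a gene), for diet at 24 weeks (left) and CLEC4F- macs against WD ResKCs (right), red where the adjusted p was under 0.05. Each panel has its own horizontal scale, and the ITAM list spreads to both sides of 0 on the right, with Lat2 at 4.87.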

How the data were processed

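RNA sequencing of sorted liver macs gave 1 count file for each of the 35 samples. The authors prepared TruSeq libraries, sequenced single reads of 75 bases, aligned them to mm10 with HISAT2 2.2.0 and SAMtools 1.10 and counted them per gene with featureCounts 2.0.0, with FastQC 0.11.9 as quality check. The deposited values are raw counts per gene. The annotation, strand setting and rule for multiply matching reads are not given in the sources used here. The labels do not tie samples to mice, so p-values measure the spread between these samples.

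Counts were scaled by TMM, and the 13421 genes above 1 CPM in at least 5 samples were tested with edgeR's quasi-likelihood test (edgeR 4.0.16, R 4.3.3) in 1 fit of 6 group means over 35 samples, with Benjamini-Hochberg adjustment over all genes. A gene was called at an adjusted p under 0.05. The SE and 95% interval follow from the same test, and fold changes are on the log2 scale. CPM values are counts per 1000000, with the total of a sample taken over the genes that passed the filter and multiplied by its TMM factor. The filter at 1 CPM and the limit for a count of 3 used unscaled totals of all genes. DESeq2 1.42.0, limma-voom (limma 3.58.1), other scalings and filters, marker lists as covariates, the compared groups alone, a replicate block, each naming scheme alone and the lists without 1 sample (both chosen after seeing the data) and leaving out each sample were alternatives. The scripts were tested on simulated data. A count of 3 was taken as the limit that a count of 0 allows, and such limits cover counting error only.

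The 6 receptor genes and all lists were chosen with earlier results of these data known. All 6 receptors were named, and from each list the called genes with the 2 largest rises and 2 largest falls between CLEC4F- macs and WD ResKCs, and likewise with diet at 24 weeks, except 1 gene that is not reported here. Gene positions came from GENCODE M21, and promoters and shared windows were read from GRCm38.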

Additional observations from a re-analysis of the deposited data

Results flagged for a closer look

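Fcgr4 in replicate 4 of the 12-week WD ResKCs stood apart, at 642 CPM against 479 CPM in the nearest of the other 4 samples. The gap was 0.714 of the group's range, just over Dixon's limit for 5 samples. It was the 1 value so marked among 36 groups of samples, and chance marks about 1 in 20 such groups.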

How the results depend on the processing

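Of 1278 alternatives to the 48 fold changes of the receptors, 1195 kept direction and side of the threshold, 24 lost a call, 12 gained one and 47 turned sign. The 140 alternatives of the ratios each left out 1 sample and were checked for a move of 1 SD. Leaving out 1 sample cannot move a group mean that far, so this check shows nothing about the ratios. The calls of Fcgr2b and Fcgrt between CLEC4F- macs and WD ResKCs held under each alternative run. The cause of the changes below was not tested.

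For diet at 24 weeks 2 genes were called, against 0 with a log2 fold change over 1 required, 1 with library size alone, 1 without a filter, 1 with the immediate-early covariate, 4 with the compared groups alone, 0 with the first naming scheme alone, and 1 to 2 leaving out 1 sample each. For moKCs against ResKCs the 1 call became 0 with a log2 fold change over 1 required and 0 with the first scheme alone. For CLEC4F- macs against moKCs the 4 calls became 1 with a log2 fold change over 1 required, 1 with the second scheme alone and 3 to 5 leaving out 1 sample each. Deviations of same-numbered samples correlated at a mean r of -0.112 to 0.118 over the comparisons, and in none were all pairs over 0.1. For CLEC4F- macs against WD ResKCs 4 of 6 pairs were over 0.1, and the lowest was 0.024. Whether same-numbered samples of the 24-week WD groups came from the same mouse is not given and was not tested. With a replicate block the counts were 4 for diet at 24 weeks and 1 for CLEC4F- macs against moKCs.

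Over all 13421 genes the counts called also moved by over 1.5 times. Over the alternatives other than leaving out samples they ran from 469 to 1504 for diet at 24 weeks (1169 reported), 0 to 44 for diet at 12 weeks (5), 0 to 22 over time on the SD (0), 21 to 632 over time on the WD (438), 1669 to 4899 for CLEC4F- macs against ResKCs (4433), 62 to 576 for moKCs (401), 325 to 2416 for CLEC4F- macs against moKCs (2204) and 0 to 192 for the difference of diet effects (38).

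The sign turned only for values without a call. Fcgr1 with diet at 12 weeks (0.0086) was -0.0024 with RLE factors and with DESeq2, -0.0090 without a filter, -0.010 with the LSEC covariate, -0.0063 with the immediate-early covariate, -0.0015 with limma-voom, -0.0080 with the groups alone and -0.012 with the replicate block. With library size alone Fcgr1 was 0.019 with diet at 24 weeks and 0.011 over time on the WD. With the LSEC covariate Fcgr2b was -0.0026 and Fcer1g 0.013 over time on the SD, and Fcgr2b was 0.10 for the difference of diet effects. With the naming scheme as covariate Fcer1g was 0.070 over time on the SD and -0.010 in moKCs, Fcgr3 was -0.029 over time on the WD, and Fcgr2b was 0.0010 for the difference of diet effects. With the first scheme alone Fcgr2b was 0.18 and Fcgr4 -0.028 with diet at 12 weeks, Fcer1g 0.067 over time on the SD, Fcgr3 -0.074 over time on the WD and Fcer1g -0.20 in moKCs. With the second alone Fcgr1 was 0.0083 in CLEC4F- macs against ResKCs. A filter at 10 CPM gave Fcgr2b -0.00018 over time on the WD, and the replicate block gave Fcer1g -0.0097 in moKCs. Leaving out 1 sample each gave ranges of -0.0505 to 0.074 for Fcgr1, -0.13 to 0.027 for Fcgr3 and -0.046 to 0.14 for Fcgr4 with diet at 12 weeks, and -0.055 to 0.017 for Fcer1g over time on the SD. Over time on the WD they were -0.0853 to 0.039 for Fcgr1, -0.20 to 0.22 for Fcgr2b and -0.090 to 0.068 for Fcgr3, and in moKCs -0.031 to 0.067 for Fcer1g.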
